A study of Mus musculus with 2 samples.

Results

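The proteasome subunit genes were followed here across the cell clusters of mouse esophagus, in a library with an intact and a library with a conditionally deleted Keap1 gene. Members were all gene names made of Psma, Psmb, Psmc or Psmd and a number, without the inducible Psmb8, Psmb9 and Psmb10, together with Pomp. The rule took 36 of the 18595 genes of the table. They fall into 15 core particle genes (8 Psma and 7 Psmb), 17 regulatory particle genes (6 Psmc and 11 Psmd), 3 regulatory particle assembly chaperones (Psmd5, Psmd9 and Psmd10) and Pomp, which helps to assemble the core. The members lie on 16 chromosomes. The thymus form Psmb11 was not analysed here.

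The esophagus was freed of its muscle layer, and dispersed cells of hybrid C57BL/6J and BALB/c mice were profiled by droplet 3′ RNA sequencing. The control library was Keap1 floxB/floxB, and the Keap1 cKO library was K5CreERT2::Keap1 floxB/floxB, so both carried the floxed allele and only the second carried Cre. K5CreERT2 is a Cre recombinase activated by tamoxifen and driven by the keratin 5 promoter, which is active in basal epithelial cells. Cells of the other types were therefore not the target of the deletion, although they shared the animal. The labels name neither the number and age of the mice nor the dose and timing of tamoxifen. There was 1 library per genotype, so there is no replicate check and no test. Every interval is at 95% and covers only the error of counting, and cells of a library are not replicates of a genotype.

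The proteasome degrades proteins tagged with ubiquitin. Its barrel-shaped core particle has outer rings of Psma subunits and inner rings of Psmb subunits, of which Psmb5, Psmb6 and Psmb7 carry the proteolytic sites. The regulatory particle caps the barrel: its base holds the Psmc ATPases, which unfold substrates and open the gate, and its base and lid hold Psmd subunits that bind ubiquitin chains and remove them. Keap1 marks the transcription factor NRF2 for degradation by this machine. NRF2 and its relative NRF1 (gene Nfe2l1) bind antioxidant response elements (ARE), and NRF1 is known for raising subunit genes together when proteasome capacity is short.

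Promoter windows are shown for 6 members because the results return to them: Psmc1 and Psmd2, which had among the highest ratios, Pomp, and Psmb5, Psmb6 and Psmd9, which hold an ARE core close to the start. The sequences are the 150 bases before the RefSeq transcript start on GRCm38.p6, read 5′ to 3′ on the strand of the gene. They span chr12:100110052-100110201 (plus strand) for Psmc1, chr16:20651502-20651651 (plus strand) for Psmd2, chr5:147860478-147860627 (plus strand) for Pomp, chr14:54617996-54618145 (minus strand) for Psmb5, chr11:70525207-70525356 (plus strand) for Psmb6 and chr5:123228040-123228189 (plus strand) for Psmd9. Capitals mark an ETS motif (CCGGAAG on either strand) in the first 3 and an ARE core (TGACNNNGC on either strand) in the last 3.
Psmc1: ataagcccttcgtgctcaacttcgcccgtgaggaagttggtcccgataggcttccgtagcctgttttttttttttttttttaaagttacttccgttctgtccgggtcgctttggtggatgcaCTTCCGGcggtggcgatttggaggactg
Psmd2: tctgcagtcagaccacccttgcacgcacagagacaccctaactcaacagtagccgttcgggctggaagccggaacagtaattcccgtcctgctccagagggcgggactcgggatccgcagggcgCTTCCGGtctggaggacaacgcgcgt
Pomp: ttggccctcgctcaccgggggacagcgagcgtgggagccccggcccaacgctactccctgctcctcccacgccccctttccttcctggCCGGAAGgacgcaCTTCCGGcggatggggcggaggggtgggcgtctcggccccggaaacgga
Psmb5: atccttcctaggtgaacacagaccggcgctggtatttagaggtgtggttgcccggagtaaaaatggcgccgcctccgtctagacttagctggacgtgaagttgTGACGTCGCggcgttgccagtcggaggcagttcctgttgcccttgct
Psmb6: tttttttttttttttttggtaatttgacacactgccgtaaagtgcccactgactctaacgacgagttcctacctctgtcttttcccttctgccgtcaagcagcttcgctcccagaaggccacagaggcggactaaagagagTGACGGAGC
Psmd9: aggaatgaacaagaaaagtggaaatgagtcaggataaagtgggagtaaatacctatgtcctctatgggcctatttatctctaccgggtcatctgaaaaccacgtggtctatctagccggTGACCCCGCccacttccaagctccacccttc
In this set the ETS motif began 28 bases before the start in Psmc1 and 26 in Psmd2, and the Pomp window held it on both strands. The ARE core began 47, 9 and 31 bases before the start in Psmb5, Psmb6 and Psmd9.

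RefSeq windows of 250 bases before to 50 after the start were found for 29 of the 36 members, in 31 windows. The ETS motif was in 38.7% of the member windows and in 8.86% of all 32851 windows of the same length. By particle it was in 9 of 14 regulatory particle genes, in 1 of 11 core genes (Psma6) and in Pomp. The ARE core was in 16.1% of member windows against 12.4% of all windows, in Psmb5, Psmb6, Psmc6, Psmd9 and Psmd12. A looser ARE form (TGANNNNGC) was in 54.8% of member windows against 41.3%. Both orientations were searched, and no ARE core overlapped an ETS motif in these windows. A GC box (GGGCGG) was in 61.3% of member windows against 35.7%, and a CCAAT box in 35.5% against 37.4%. A match describes letters in a window and is not evidence of binding.

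The control library held 2472 cells and the Keap1 cKO library 2381 cells, with medians of 11293.5 and 8193 unique molecular identifiers (UMIs) per cell. They shared 5 cell barcodes. The authors' annotation gave 19 clusters, of which 12 held at least 50 cells in each library and entered ratios. Epithelial cells numbered 848 in the control and 422 in the Keap1 cKO library, with medians of 17667 and 5072.5 UMIs, so the 2 epithelial populations differ in depth and in their mix of clusters. Keap1 itself stood at 69.8 UMIs per 1000000 (CPM, counts scaled to the summed UMIs of the population) in control and 44.5 CPM in Keap1 cKO epithelial cells (log2 ratio -0.65, interval -0.83 to -0.47), and whether these 3′ reads lie in the deleted part is not known. Cluster 12, annotated as B cells, carried dendritic and Langerhans markers at 20.1 times their level in the other clusters, and clusters 6 and 10 had medians of at most 1207 UMIs per cell. These clusters are given by number.

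In epithelial cells most proteasome subunit transcripts were somewhat higher in the Keap1 cKO library, in both particles. The members summed to 5610 CPM (5571 to 5650) in the control and 6693 CPM (6634 to 6752) in the Keap1 cKO library. Core subunits summed to 3122 CPM in the control and 3785 CPM in the Keap1 cKO library (log2 ratio 0.28, interval 0.26 to 0.30). Regulatory particle subunits summed to 2104 and 2446 CPM (log2 ratio 0.22, interval 0.19 to 0.24). The counting intervals of the libraries did not overlap for either particle. A CPM is a share of the cell's RNA, so in these data more proteasome RNA per cell and less of other RNA cannot be told apart. The mean cell carried 91.1 member UMIs in the control and 118 in the Keap1 cKO library.

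The shift was small for each gene. Ratios needed a minimum of 20 UMIs summed over the libraries, which 35 members had. Of these, 29 had a log2 ratio above 0, with a median of 0.21, against 48.4% above 0 and a median of -0.02 over all 12638 genes tested. Members at least 1.5-fold higher numbered 3, where the background was 17.5% of all genes, and 0 members were at least 1.5-fold lower, where the background was 15.8%. At that fold the members do not stand out from the background. The core median was 0.27 and the regulatory particle median 0.18, but with every cell weighted equally they were 0.19 and 0.30. The counting interval lay above 0 for 25 members and below 0 for 3 (Psmb1, Psmc6 and Psmd10), against 26.9% and 26.8% of all genes. Since abundant genes have narrow intervals, the 32 members with at least 1000 UMIs were set beside 2761 genes of that depth: 25 of the 32 had intervals above 0 and 2 below, against 35.1% and 39.8%.

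**Figure D1:**
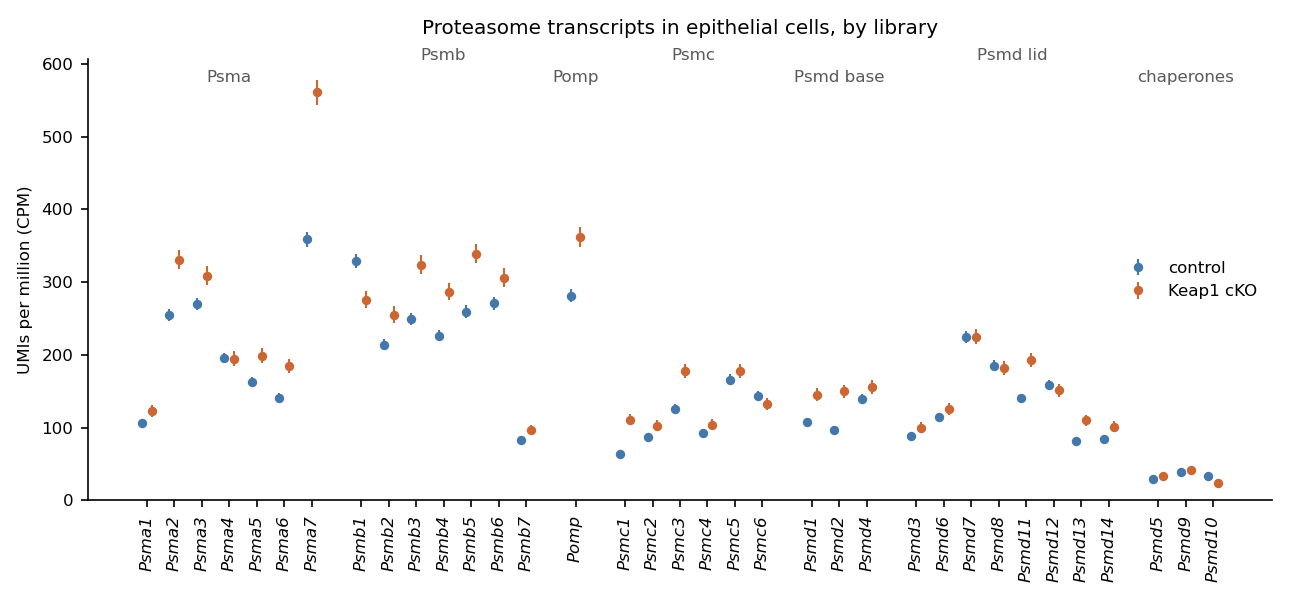
Levels of 35 members in epithelial cells (vertical axis, CPM; bars are exact 95% counting intervals) in the control and Keap1 cKO libraries, ordered by role, with Psma8 left out. Psma7 moves from 359 to 561 CPM, while Psmb1, Psmc6, Psmd12 and Psmd10 lie lower in the Keap1 cKO library.

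The outer ring had the gene with the largest level and the largest core ratio. Psma7, an outer ring subunit, stood at 359 CPM (349 to 369) in control and 561 CPM (544 to 578) in Keap1 cKO epithelial cells. The Keap1 cKO library was higher and the intervals did not overlap, with a log2 ratio of 0.64 (0.58 to 0.70). The other outer ring genes Psma1, Psma2, Psma3, Psma5 and Psma6 had log2 ratios from 0.19 to 0.38, and Psma4 stood at 196 and 195 CPM. Psma8, the testis form that takes the place of Psma7, had 8 UMIs in 8 of 2472 control cells and 14 UMIs in 13 of 2381 Keap1 cKO cells. In epithelial cells it had 1 UMI and 0 UMIs, so it gave no ratio.

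Of the inner ring, 6 of 7 genes were higher in the Keap1 cKO library. Psmb5, which carries the chymotrypsin-like site, stood at 260 CPM (251 to 268) in control and 339 CPM (326 to 352) in Keap1 cKO (log2 ratio 0.38, interval 0.31 to 0.46). Psmb6, with the caspase-like site, stood at 271 and 306 CPM, and Psmb7, with the trypsin-like site and the lowest level of the inner ring, at 83.7 and 96.3 CPM. All 3 catalytic genes were higher in the Keap1 cKO library, and their intervals did not overlap between libraries. Psmb1, a structural subunit and the most abundant inner ring gene, went the other way. It stood at 329 CPM (319 to 339) in control and 276 CPM (264 to 288) in Keap1 cKO (log2 ratio -0.25, interval -0.33 to -0.18). Pomp, the chaperone that the inner ring needs to assemble, stood at 281 CPM (273 to 290) and 362 CPM (348 to 376) (log2 ratio 0.36, interval 0.29 to 0.44).

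The ATPase ring was uneven. Psmc1, an ATPase whose tail takes part in opening the core gate, was the least abundant regulatory particle gene in the control and the member with the highest ratio. It stood at 64.1 CPM (60.0 to 68.5) in control and 111 CPM (103 to 118) in Keap1 cKO (log2 ratio 0.79, interval 0.65 to 0.92). Psmc3 stood at 126 and 178 CPM (log2 ratio 0.50, interval 0.39 to 0.60). Both were higher in the Keap1 cKO library without overlap. Psmc5, the most abundant ATPase, stood at 166 and 178 CPM, and its ratio interval reached 0. Psmc6 stood at 144 and 133 CPM (log2 ratio -0.12, interval -0.23 to -0.01).

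Among the other regulatory subunits, Psmd2, the base scaffold that docks shuttle factors, stood at 97.6 CPM (92.4 to 103) in control and 150 CPM (141 to 159) in Keap1 cKO (log2 ratio 0.62, interval 0.50 to 0.74). Psmd4, a ubiquitin receptor, stood at 140 and 156 CPM (log2 ratio 0.16, interval 0.05 to 0.26). Psmd14, the deubiquitinase of the lid, stood at 84.1 and 101 CPM (log2 ratio 0.27, interval 0.14 to 0.40). Its lid partner Psmd7, the most abundant Psmd gene, stood at 225 CPM in both libraries, with a log2 ratio of 0.00 (-0.09 to 0.09). The lid scaffold Psmd12 stood at 159 and 151 CPM (log2 ratio -0.07, interval -0.18 to 0.03).

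The assembly chaperones of the regulatory particle had lower levels than its subunits. Psmd5 stood at 29.2 and 33.0 CPM and Psmd9 at 39.6 and 41.9 CPM, with ratio intervals that included 0. Psmd10, also called gankyrin, stood at 34.2 CPM (31.2 to 37.4) in control and 24.7 CPM (21.3 to 28.5) in Keap1 cKO (log2 ratio -0.47, interval -0.73 to -0.22), the lowest of all members. The core genes other than Psma8 had a median level of 238 CPM in control and 282 CPM in Keap1 cKO, against 115 and 145 CPM for the regulatory particle. These UMI levels are counted at 3′ ends and are not divided by length, and capture can differ between genes, so the order of genes is approximate.

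Members with an ARE core in the window, such as Psmb5, Psmb6 and Psmd9 shown above, had a lower median than the other members in epithelial cells. The log2 median was 0.08 over 5 genes, from -0.12 to 0.38 (Psmb5), against 0.28 over the 24 members without it. With the looser ARE form (TGANNNNGC) the order was opposite, at 0.27 over 16 genes against 0.21 over 13 without. The direction for ARE members therefore depends on the form of the motif. Members with an ETS motif had a median of 0.36 over 11 genes, from -0.12 to 0.79, against 0.20 over 18 without. Psmc1 and Psmd2 were shown above for their high ratios and do not stand for the other ETS members. Gaps were not particular to ETS. The GC box members had a median of 0.18 over 19 genes against 0.36 over 10 without. For the CCAAT box the medians were 0.27 over 11 and 0.18 over 18 without. The ranges overlap, and these medians are a description of the 29 matched members.

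The difference between libraries was not the same in every cluster. Of the epithelial clusters with at least 50 cells in each library, cluster 4 had a member median of 0.28 on the log2 scale, cluster 13 of 0.13 and cluster 9 of 0.38, where all genes had medians of 0.00, -0.03 and -0.15. With median-of-ratios scaling the median of cluster 9 was 0.65. Cluster 10, with 170 and 81 cells and medians of 1178 and 809 UMIs, had a median of -0.23. Its members summed to 5365 CPM (5124 to 5615) in control and 4503 CPM (4050 to 4992) in Keap1 cKO. This epithelial cluster was thus lower in the Keap1 cKO library, without overlap. In clusters 4 and 13 the keratinocyte markers Krt5, Krt14, Krt15, Krt13, Krt4, Trp63, Sfn and Perp, summed, were at 2.2 and 5.0 times the level of the other clusters. Between the libraries, keratinocyte markers went from 25011 to 17487 CPM in cluster 4 and from 46284 to 34025 CPM in cluster 13. In cluster 4, cycling markers went from 122 to 901 CPM, cornified markers from 245 to 1964 CPM and red cell markers from 661 to 3609 CPM. In cluster 13, fibroblast markers went from 280 to 1450 CPM. The neutrophil list was Retnlg, Csf3r, Cxcr2, S100a8 and S100a9, of which 2 of 5 genes were above 50 CPM in either cluster. It went from 0.616 to 6263 CPM in cluster 4 and from 2.86 to 16706 CPM in cluster 13. A sum carried by 2 genes does not show that neutrophils were present. The part of these marker levels in the member ratios was not tested. Epithelial clusters 14 and 15 had under 50 cells in at least 1 library, and their members summed to 5106 and 5563 CPM and to 5813 and 7032 CPM in control and Keap1 cKO.

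Cluster 9 held the highest member level of all clusters. Members summed to 6715 CPM (6476 to 6960) in its 114 control cells and 9117 CPM (8929 to 9309) in its 140 Keap1 cKO cells, without overlap. Here 10 of 35 members were at least 1.5-fold higher, against 19.8% of all genes tested in the cluster, and 0 were 1.5-fold lower, against 30.2%. Psmd11, a lid subunit at the contact with the core, stood at 144 CPM (111 to 184) and 424 CPM (384 to 467) (log2 ratio 1.56, interval 1.17 to 1.96). Psma5, an outer ring gene, stood at 115 CPM (85.6 to 151) and 325 CPM (290 to 363) (log2 ratio 1.498, interval 1.07 to 1.95). These 2 were the highest ratios of the cluster and were picked out after their values were seen. In cluster 4 their log2 ratios were 0.24 and 0.30.

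Psma7 stood at 543 CPM in control and 1042 CPM in Keap1 cKO cells of cluster 9 (log2 ratio 0.94, interval 0.74 to 1.15). Psmb1 stood at 356 and 243 CPM (log2 ratio -0.55, interval -0.85 to -0.25), so it was lower where the core sum was highest. The cells of cluster 9 differed between libraries in more than the proteasome. Cornified markers summed to 30050 CPM in control and 16563 CPM in Keap1 cKO, and keratinocyte markers to 78794 and 25583 CPM. The neutrophil list, of which 2 of 5 genes were above 50 CPM, summed to 708 and 38335 CPM, and here too does not show that neutrophils were present. The part of these differences in the member ratios was not tested.

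**Figure D2:**
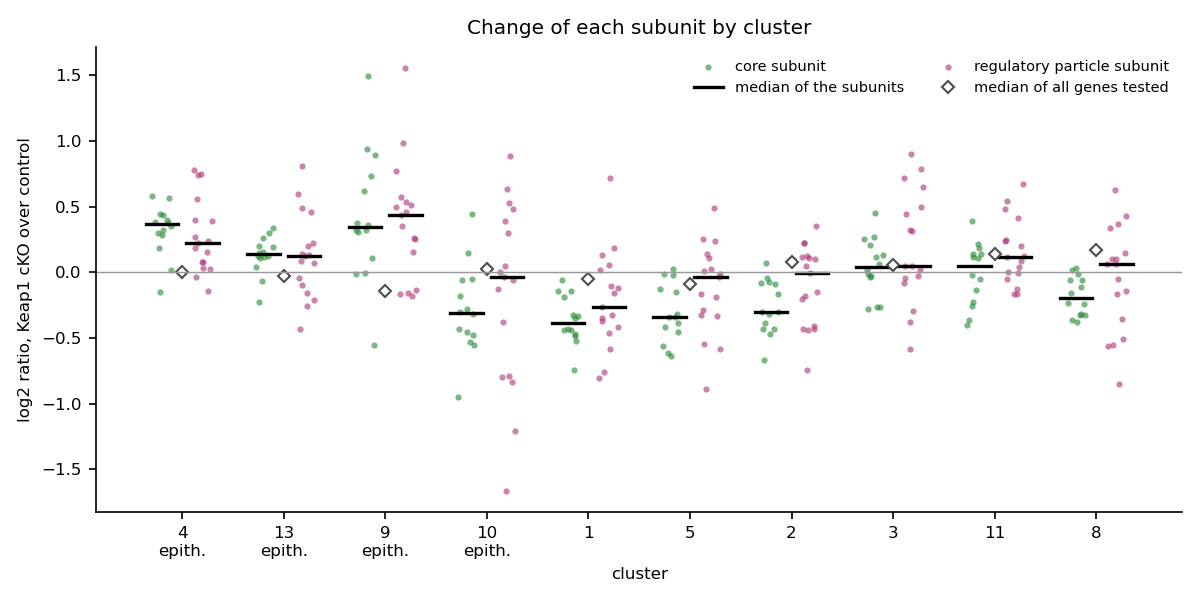
Log2 ratio of Keap1 cKO over control for each core and regulatory particle subunit (points) in 10 clusters, with the median of each particle (bars) and of all genes tested (diamonds). Core medians lie at 0.37, 0.14 and 0.34 in epithelial clusters 4, 13 and 9, and at -0.39, -0.34 and -0.30 in clusters 1, 5 and 2.

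Outside the epithelium the core was lower in several clusters of the Keap1 cKO library. In cluster 1, annotated as fibroblasts, core subunits summed to 1878 CPM in 545 control cells and 1476 CPM in 187 Keap1 cKO cells (log2 ratio -0.35, interval -0.40 to -0.30). In cluster 5, also fibroblasts, they summed to 1958 and 1590 CPM (log2 ratio -0.30, interval -0.36 to -0.24). In the myeloid cluster 2 they summed to 2456 and 2068 CPM, and in the endothelial cluster 8 to 2257 and 1975 CPM. In cluster 2, myeloid markers went from 17284 to 11850 CPM and lymphatic markers from 1155 to 299 CPM between the libraries. In cluster 8, endothelial markers stood at 4296 and 4453 CPM, T cell markers at 73.2 and 561 CPM, fibroblast markers at 413 and 1113 CPM and myeloid markers at 520 and 203 CPM. The part of these in the core ratios was not tested. The T cell clusters 3 and 11 had core log2 ratios of 0.01 (-0.09 to 0.12) and -0.00 (-0.11 to 0.11). In cluster 1 no core gene of 14 had a log2 ratio above 0, and all genes tested had 45.7% above 0.

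The regulatory particle did not move by the same amount in these clusters. Its summed log2 ratio was -0.14 (-0.19 to -0.08) in cluster 1, -0.05 (-0.11 to 0.01) in cluster 5, -0.04 (-0.11 to 0.03) in cluster 2 and -0.05 (-0.16 to 0.06) in cluster 8. Core ratios of the 4 clusters were each lower than this. Members at least 1.5-fold lower numbered 3 in cluster 1, against 16.1% of all genes there, and 5 in cluster 5, against 18.2%. Those in cluster 1 were Psmd12, Psmc2 and Psmb6, with log2 ratios of -0.81, -0.76 and -0.75.

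Fibroblast markers summed to 37523 CPM in control and 62862 CPM in Keap1 cKO cells of cluster 1, and to 33595 and 60884 CPM in cluster 5. The ribosomal protein genes, a comparison chosen after values were seen, had median log2 ratios of -0.43 in cluster 1 and -0.61 in cluster 5, and -0.28 in epithelial cells. The part of these marker levels in the core ratio was not tested.

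**Figure D3:**
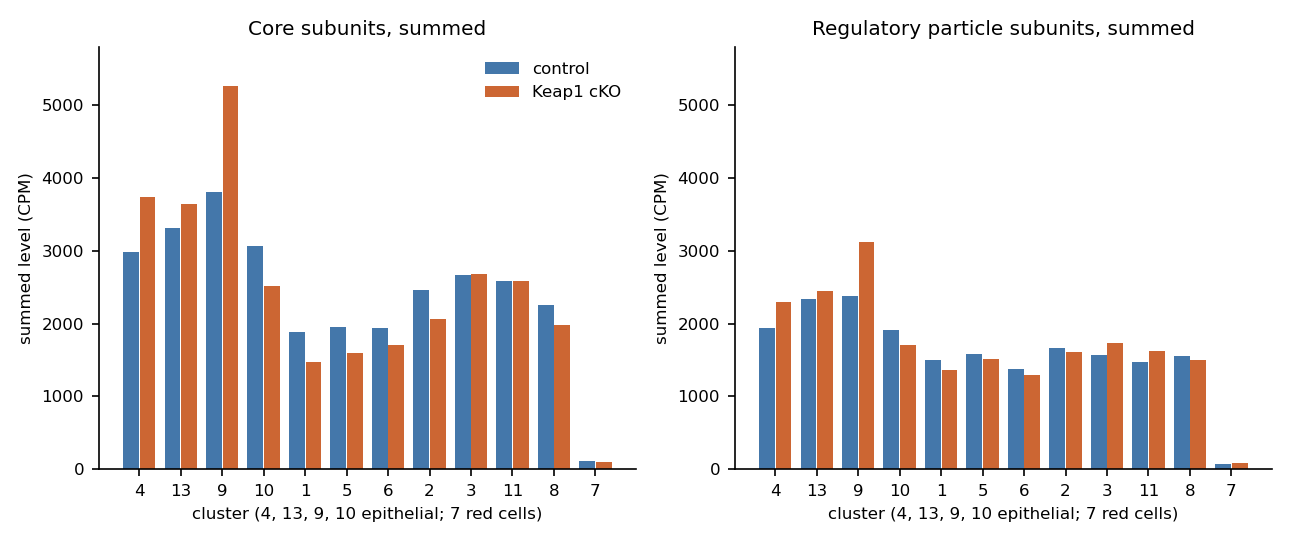
Summed level (CPM) of core subunits (left) and regulatory particle subunits (right) in 12 clusters, by library. Cluster 9 stands highest in both panels (core 3808 and 5258 CPM), and cluster 7, red cells, lowest (core 109 and 101 CPM).

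Clusters with more core transcript mostly had more regulatory particle transcript. In the control, core sums were highest in the 4 epithelial clusters, lower in the T cell, myeloid and endothelial clusters, lower still in fibroblasts and lowest in red cells. The Keap1 cKO library had the same order except for cluster 10, which at 2520 CPM (3061 CPM in control) lay below the T cell clusters 3 and 11 at 2685 and 2584 CPM. Across the 12 clusters, core and regulatory particle CPM had a Pearson correlation of 0.963 in the control and 0.973 in the Keap1 cKO library, as a description of points that share a library and a scale. The median cell gave 0.557% of its UMIs to members in control epithelium and 0.642% in Keap1 cKO epithelium. In cluster 1 the values were 0.347% and 0.302%, and in red cells 0.017% and 0.018%.

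The core share is the part of core plus regulatory particle UMIs that came from the core. In epithelial cells it was 59.7% (59.4 to 60.1, exact Clopper-Pearson) in the control and 60.7% (60.3 to 61.2) in the Keap1 cKO library. With every cell weighted equally it was 60.7% and 60.6%, so the order of the libraries changed with that weighting. In fibroblasts the share went from 55.7% (55.0 to 56.3) to 52.0% (50.9 to 53.1) in cluster 1 and from 55.4% (54.6 to 56.2) to 51.1% (49.96 to 52.3) in cluster 5. In myeloid cluster 2 it went from 59.7% to 56.2%. Intervals in these 3 clusters did not overlap between libraries, while those of endothelial cluster 8, at 59.2% and 56.9%, did.

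**Figure D4:**
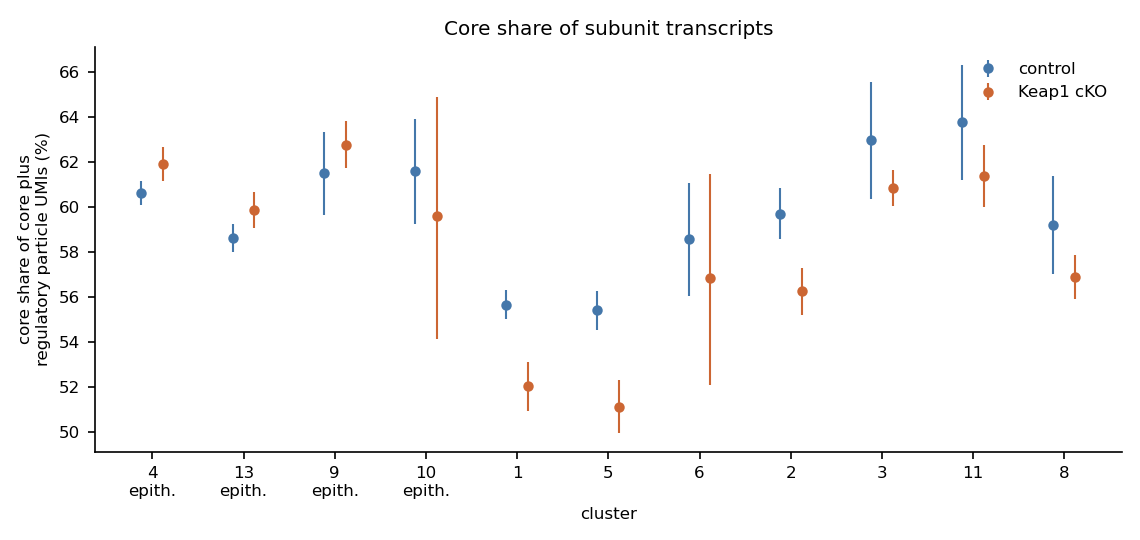
Core share of core plus regulatory particle UMIs (percent; bars are exact 95% counting intervals) in 11 clusters, by library. The control lies above the Keap1 cKO library in clusters 1, 5 and 2 without overlap, and the order is opposite, with overlapping intervals, in clusters 4, 13 and 9.

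Set against the other cell types of the same libraries, epithelial ratios were high for most members. The epithelial log2 ratio was above the median of clusters 1, 2, 3, 5, 6, 8 and 11 for 32 of 35 members, for 14 of 14 core genes and for 15 of 17 regulatory particle genes. The share of all genes for which this held was not computed, so these counts have no background. The median difference among the members was 0.37. The largest was that of Psmb5, at 0.81, whose median in the other clusters was -0.42. The exceptions were Psmc6, Psmd8 and Psmd10.

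Some members had the same direction in nearly every cluster. Psmd2 was higher in the Keap1 cKO library in 11 of 11 clusters that gave it a ratio, with the counting interval above 0 in 6. In fibroblast cluster 1 it stood at 83.7 CPM (76.8 to 90.9) and 137 CPM (124 to 152) (log2 ratio 0.72, interval 0.53 to 0.90), while other members there were mostly lower. Psmc1 was higher in 11 of 11 clusters, but its log2 ratios of 0.78, 0.81 and 0.98 in clusters 4, 13 and 9 were above those of 0.13 to 0.43 in clusters 1, 5, 2, 3, 11 and 8. Its highest ratio was in fibroblast cluster 6, at 1.04 (-0.28 to 2.29) from 15 and 10 UMIs, and cluster 10 had 0.89 (-0.42 to 2.07), so at their depth these clusters cannot be placed in that order. Psmb1 was lower in 12 of 12, with the interval below 0 in 7. Clusters of a library share its animal and its preparation, so these counts are not replicates.

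**Figure D5:**
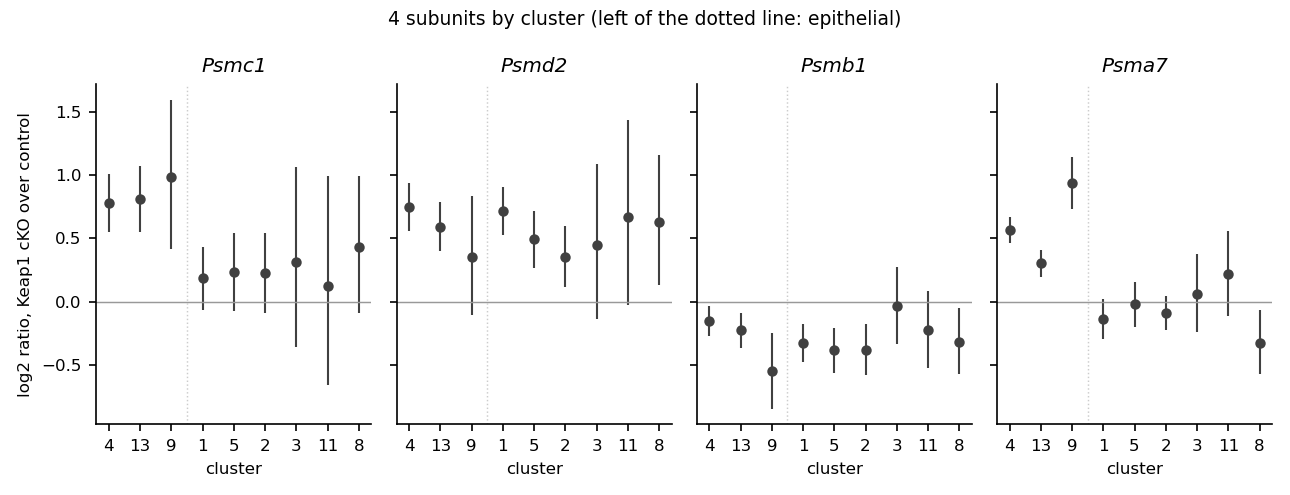
Log2 ratios of Keap1 cKO over control (bars are exact 95% counting intervals) for Psmc1, Psmd2, Psmb1 and Psma7 in 9 clusters, with epithelial clusters left of the dotted line. Psmd2 lies above 0 and Psmb1 below 0 in all 9, while Psma7 is at 0.57, 0.30 and 0.94 in the epithelial clusters and between -0.33 and 0.22 in the others.

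Cells of the Keap1 cKO epithelium were also divided by a measure that uses no member. For each cell the share of UMIs from 12 NRF2 target genes, among them Nqo1, Gclc, Gclm and Txnrd1, was compared with the 95th percentile of control epithelial cells. The 106 cells above it had 8963 member CPM (8800 to 9128), with a median of 3500 UMIs, and the 316 cells at or below it had 6219 member CPM (6157 to 6282), with a median of 6263.5 UMIs. Control epithelial cells stood at 5610 CPM. Within cluster 9 the 73 cells above its own control percentile had 9705 CPM (9483 to 9931) and the 67 others 7222 CPM (6880 to 7577). That percentile, at 1.07%, was above the pooled 0.797%, so these 73 cells were also among the 106. The pooled groups therefore differed in their clusters as well. Within cluster 4 the values were 7464 CPM (7211 to 7724) in 25 cells and 6237 CPM (6133 to 6343) in 68. Cluster 13 had 3 cells above and is not compared. In the others the cells with the higher NRF2 target share had more member CPM, without overlap. Cells above the percentile were deeper in cluster 9, with medians of 3121 and 1886 UMIs, and shallower in cluster 4, with 6555 and 32833.5 UMIs. The part of depth in these values, and of cluster in the pooled ones, was not tested. Control cells on either side of the percentile were not compared. Whether the same difference holds with an intact Keap1 gene was therefore not tested.

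The inducible subunits Psmb8, Psmb9 and Psmb10 replace the catalytic Psmb5, Psmb6 and Psmb7 in the immunoproteasome. In epithelial cells all 3 were at least 1.5-fold higher in the Keap1 cKO library, with 14.8 and 35.0 CPM for Psmb8, 7.34 and 12.9 CPM for Psmb9 and 23.5 and 47.4 CPM for Psmb10. Their share of inducible plus constitutive catalytic UMIs was 6.91% (6.40 to 7.45) in the control and 11.4% (10.6 to 12.2) in the Keap1 cKO library. Cluster 14 gave 204 of the 628 inducible UMIs in the control and 290 of the 710 in the Keap1 cKO library. Its own share was 37.99% (33.87 to 42.24) and 33.18% (30.06 to 36.41), with overlap. The part of cluster 14 in the pooled shares was not tested. Clusters 4 and 13 were higher in the Keap1 cKO library without overlap. Cluster 9 stood at 3.29% (1.76 to 5.56) and 4.995% (3.79 to 6.45), with overlap. T cell markers in cluster 4, where the inducible share was 5.005% and 9.50%, summed to 4.5 and 68.9 CPM, and the part of other cells in this was not tested. The order was opposite, without overlap, in T cell clusters 3, at 65.8% (60.7 to 70.6) and 56.2% (54.4 to 58.1), and 11, at 73.7% (69.4 to 77.7) and 62.8% (60.1 to 65.5). Fibroblast cluster 5 also had this order, at 22.1% and 17.0%, with intervals that all but touched. So did endothelial cluster 8, with 64.2% (60.0 to 68.3) in 53 control cells and 41.6% (39.1 to 44.2) in 203 Keap1 cKO cells. Smooth muscle markers of cluster 8 summed to 776 and 125 CPM, and their part in this was not tested. Cluster 16, also annotated as T cells, was higher in the Keap1 cKO library. Its share was 26.7% (22.7 to 31.0) in 24 control cells and 58.5% (55.4 to 61.5) in 48 Keap1 cKO cells. T cell markers of cluster 16 summed to 582 CPM in control and 2986 CPM in Keap1 cKO, and keratinocyte markers to 14868 and 608 CPM. The part of these differences in its share was not tested.

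Among other pathway genes in epithelial cells, 5 activators and inhibitors of the core had a median log2 ratio of 0.22, with 2 at least 1.5-fold higher: Psme4 at 0.86 (0.72 to 1.01) and Psme3 at 0.70 (0.51 to 0.89). The 9 shuttle and unfolding factors had a median of 0.51 with 1 past that fold, Nploc4 at 0.80 (0.48 to 1.12), and the segregase Vcp stood at 237 and 346 CPM. The ubiquitin-activating enzyme Uba1 stood at 75.3 and 129 CPM (log2 ratio 0.78, interval 0.65 to 0.91). The core assembly chaperones Psmg1 to Psmg4 had a median of -0.04, with all 4 intervals including 0, unlike Pomp. Of 6 other regulatory particle genes none was past the fold, and Sem1, a small lid subunit, stood at 456 and 669 CPM. Nfe2l1 stood at 72.1 and 79.2 CPM (log2 ratio 0.14, interval -0.01 to 0.28), and 0 of the 5 genes of NRF1 and its processing were past the fold. The 12 NRF2 target genes were all past it in the pooled epithelial cells, with a median of 1.93, so the member ratios were small beside them. These genes were uneven by cluster. All 12 were past the fold for cluster 4, with a median of 1.53. Cluster 9 had 10 past it, and sums of 6911 CPM in control and 39826 CPM in Keap1 cKO. Cluster 13 had 7 higher and 2 lower at that fold, and sums of 4563 and 3977 CPM. Cluster 10 gave ratios for 6, with a median of -0.27. The part of cluster 9 in the pooled median was not tested.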

How the data were processed

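Values in the authors' expression table are natural log values of UMIs per 10000 of the cell plus 1, as read from the values themselves. The submitters' processing notes name mm10, Seurat 4.0.2, Cell Ranger 6.0.1 and R 4.1.1. They name no gene annotation or counting settings here. The smallest step of each cell gave back UMI counts, and 100% of positive values came out whole within 0.01 UMIs. A second table deposited by the authors gives each cell's library, cluster and cell type.

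UMIs were summed per library and cluster and given as CPM. Sums carry exact Poisson, ratios exact conditional binomial and shares exact Clopper-Pearson intervals at 95%. Ratios needed 20 UMIs over both libraries and 50 cells in each. Past 1.5-fold is a description, since 1 library per genotype allows no test. The ratio scripts were tested on simulated data. Members and gene lists were chosen with earlier results of these data known. Values were written out for the 4 highest and 4 lowest epithelial ratios, the most and least abundant gene of Psma, Psmb, Psmc and Psmd, a fixed set that includes Pomp and the catalytic genes, and the 2 most different genes of each list; others were chosen after their values were seen. The list of ubiquitin genes and first enzymes is not reported here as a list. Promoter windows and motifs come from RefSeq on GRCm38.p6. Of the 36 members, 6 (Psma5, Psmb3, Psmb5, Psmb7, Psmd1 and Psmd2) share at least 200 of their last 400 bases at 95% identity with another GENCODE vM21 gene, so their counts are uncertain. Alternatives were other scalings, weights of cells and clusters, depth limits and UMI minimums. Doublets were not removed. Python 3.11.15, numpy 2.4.6, scipy 1.17.1 and pandas 2.3.3 were used.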

Additional observations from a re-analysis of the deposited data

Results flagged for a closer look

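The summed core log2 ratio of Keap1 cKO over control was -0.348 in fibroblast cluster 1, -0.3 in fibroblast cluster 5, -0.248 in myeloid cluster 2 and -0.193 in endothelial cluster 8, while it was 0.28 in epithelial cells. These 4 values stand out because they have the opposite sign to the epithelial value. Other clusters had this sign too, so it was not confined to cells outside the epithelium. Among them were the shallow epithelial cluster 10, at -0.281 (-0.505 to -0.062), and the shallow fibroblast cluster 6, at -0.191 (-0.397 to 0.012). The difference between cell types was not tested, since each genotype has 1 library.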

How the results depend on the processing

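No paired analysis was possible because there is 1 library per genotype. Of 118 values under other settings, 105 were scored as the same, 9 as moved and 4 as changed in sign. A share was the same within its counting interval, and a count within 1.5 times. A median was the same within the median half-width of the intervals of single genes. That margin is not the counting error of the median itself. Other UMI minimums kept the same 35 members in epithelial cells and clusters 4 and 13. Those values could not change and are among the 105. The epithelial core median stayed between 0.19 and 0.32 over 11 alternatives. The regulatory particle median lay between 0.135 and 0.301 over 12, with 0.137 without cluster 9 and 0.135 without the 50 most abundant genes. Without cluster 9 the core median was 0.21, and 26 of 35 members were above 0, where 29 were as reported. The regulatory particle median was 0.30 with cells weighted equally, above the core median of 0.19 there, so the order of the particles depends on that choice. The control core share was 60.7% with cells weighted equally, 60.1% without the deepest 5% of cells, 60.6% with epithelial clusters weighted equally and 58.6% with the chaperones counted in the regulatory particle. The Keap1 cKO core share was 61.3% with clusters weighted equally and 59.8% with the chaperones. Members at least 1.5-fold lower numbered 1 with cells weighted equally and 1 with clusters weighted equally. The regulatory particle median changed sign in cluster 5, to 0.018 with median-of-ratios scaling and 0.075 without the 50 most abundant genes, in cluster 2 to 0.030 and in cluster 8 to -0.056 with cells weighted equally; the cause was not tested. These cluster settings, and a limit of 5000 UMIs per cell, were added after seeing the data. Median-of-ratios scaling shifted all genes of cluster 9 by 0.27 and its member median from 0.38 to 0.65, which that margin scored as the same. Depth limits cluster 10, whose cells had a median of 809 UMIs in the Keap1 cKO library.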
